A study of Mus musculus with 2 samples.

Results

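The 50 genes described here act in DNA replication and in mitosis. They were listed by name, and each was read in mouse diaphragm from every probe set whose annotation gives that gene as its single symbol, with 1 value per gene from the brightest probe set by the mean of both arrays. Of the 50 genes, 49 had such a probe set, out of 18193 genes that could be read in this way. Ccnb1 had none and is not analysed here. Tyms, which makes thymidylate, was dim, with log2 signals of 4.32 and 4.35; a probe set it shares with another symbol was not used. The remaining 48 genes lay above the floor used throughout, the 40th percentile of the mean signal of all probe sets (log2 5.52), as did 14093 genes in all.

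The arrays compared skeletal muscle of the diaphragm from C57/BL6 embryos at stage E18.5, 1 array labelled RP58+/+ (wild type, here WT) and 1 labelled RP58-/- (knockout, here KO). RP58, now named Zbtb18, is a zinc finger repressor. The number of embryos behind each RNA, and how the allele was made, are not stated in the labels. The comparison asks how muscle RNA differs when RP58 is missing. Each value below is a log2 signal computed by the authors with RMA, and each difference is KO minus WT; paired signals are given WT first. With 1 array per genotype the spread between embryos is unknown, so no test was possible and nothing here is checked by a second array. Size is used instead: a gene counts as higher or lower when its difference reaches 1.5-fold (0.58 on the log2 scale).

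A cell that divides first copies its DNA and then separates the copies. In replication, the MCM helicase is loaded onto origins by Cdc6 and Cdt1, is activated with Cdc45 and the GINS complex, and unwinds the DNA; E2F factors drive transcription of many of these genes as cells leave G1. In mitosis, cyclin B with Cdk1 starts chromosome condensation and spindle assembly, a checkpoint holds the cell until every kinetochore is attached, and Cdc20 then starts anaphase. Many mitotic promoters carry a CHR element (cell cycle genes homology region) and CCAAT boxes bound by NF-Y. Muscle fibres have left the cell cycle, whereas myoblasts and many non-muscle cells of a growing muscle can divide.

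The promoters of both groups are shown first because they hold the sequence difference between them. The following 250 bases end just before the gene's start in RefSeq's annotation of GRCm38.p6 and read 5′ to 3′ on the gene's strand. Capitals mark matches, on either strand, to the E2F motifs TTTCGCGC, TTTGGCGC and TTTCCCGC, to the CHR motif TTTGAA and to the NF-Y motif CCAAT. The 5 genes were picked with their values and motifs known: Hmmr, Cdc20 and Ccnb2 are mitotic genes that were brighter on the KO array, Mcm5 is a replication gene with nearly equal signals, and Cdc6 was dimmer. Hmmr lies at chr11:40733438-40733687 on the minus strand, Cdc20 at chr4:118437344-118437593 (minus), Ccnb2 at chr9:70421555-70421804 (minus), Mcm5 at chr8:75109259-75109508 (plus) and Cdc6 at chr11:98907901-98908150 (plus).
Hmmr: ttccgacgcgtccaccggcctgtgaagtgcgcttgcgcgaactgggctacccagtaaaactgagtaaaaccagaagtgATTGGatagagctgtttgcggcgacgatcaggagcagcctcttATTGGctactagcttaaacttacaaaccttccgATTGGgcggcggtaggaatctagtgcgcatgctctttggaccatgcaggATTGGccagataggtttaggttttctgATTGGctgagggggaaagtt
Cdc20: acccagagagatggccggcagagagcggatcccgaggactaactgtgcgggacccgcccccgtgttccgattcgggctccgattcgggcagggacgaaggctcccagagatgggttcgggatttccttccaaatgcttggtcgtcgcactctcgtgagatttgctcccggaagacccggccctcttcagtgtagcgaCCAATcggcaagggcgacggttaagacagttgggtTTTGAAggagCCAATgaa
Ccnb2: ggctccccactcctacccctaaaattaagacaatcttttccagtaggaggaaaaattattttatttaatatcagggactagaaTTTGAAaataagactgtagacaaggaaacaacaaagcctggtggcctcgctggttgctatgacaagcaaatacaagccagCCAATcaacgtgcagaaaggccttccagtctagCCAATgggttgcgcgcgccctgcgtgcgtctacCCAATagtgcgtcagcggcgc
Mcm5: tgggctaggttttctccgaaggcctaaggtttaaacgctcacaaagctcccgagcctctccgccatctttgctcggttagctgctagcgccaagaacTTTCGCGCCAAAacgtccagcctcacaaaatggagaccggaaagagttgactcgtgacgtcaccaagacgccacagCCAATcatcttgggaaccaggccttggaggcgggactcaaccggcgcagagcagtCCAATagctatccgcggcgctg
Cdc6: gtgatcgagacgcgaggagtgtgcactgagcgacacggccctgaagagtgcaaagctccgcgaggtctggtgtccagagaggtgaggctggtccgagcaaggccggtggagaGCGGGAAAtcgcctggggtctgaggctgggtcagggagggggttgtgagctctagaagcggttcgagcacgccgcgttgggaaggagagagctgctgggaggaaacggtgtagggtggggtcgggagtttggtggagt

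The Cdc20 promoter held a CHR match 18 to 13 bases before the start, with CCAAT matches 53 to 49 and 8 to 4 bases before it. The Ccnb2 promoter held a CHR match 167 to 162 bases before the start and 3 CCAAT matches. The Hmmr promoter held 5 CCAAT matches, all 5 on the other strand, and no CHR match in these bases. The longer window used below holds 1 CHR match for Hmmr. The capitals of Mcm5 include 2 overlapping E2F matches, TTTCGCGC and, on the other strand, TTTGGCGC. Cdc6 held 1 E2F match, TTTCCCGC on the other strand, and neither of the other motifs in these bases.

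Over the whole table of promoters, each 300 bases long (250 before and 50 after the start), 41 of the 50 genes had an entry, with 44 promoters between them. Prc1, Mcm7 and Uhrf1 were counted with 2 promoters each, and those of Prc1 overlap. A CHR match was present in 18 of 24 promoters of mitotic genes (75.0%) and in 2 of 19 of replication genes (10.5%). Of all 32851 promoters, 17.9% held one, and of the 14390 promoters of genes above the floor, 12.6%. E2F matches ran the other way, in 7 of 19 replication promoters (36.8%) and in 1 of 24 mitotic ones (4.17%), that of Cdk1, beside 1.84% of all promoters and 3.09% of those above the floor. CCAAT was present in 87.5% of mitotic and 68.4% of replication promoters, against 37.4% of all. A CHR and a CCAAT match stood together in 17 of 24 mitotic promoters (70.8%), in 2 of 19 replication promoters and in 6.95% of all. The 3 E2F motifs can overlap each other; a match is a run of letters and says nothing of binding in this tissue.

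**Figure D1:**
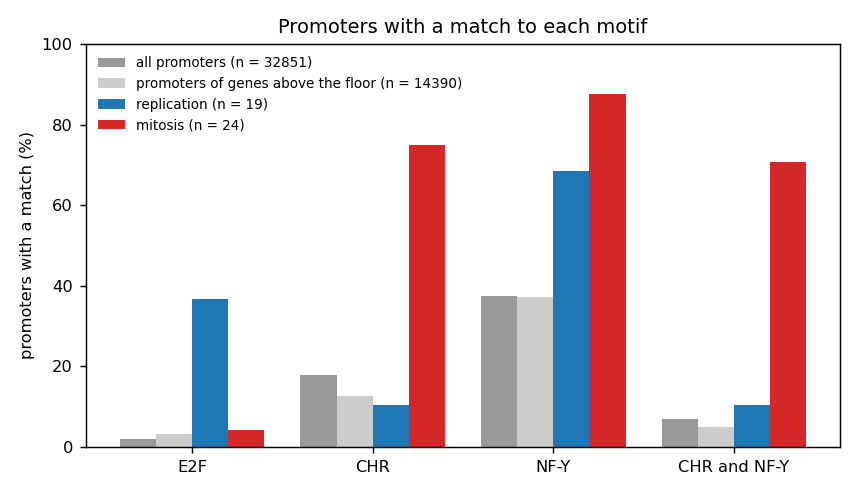
Share of promoters (%, y axis) with at least 1 match to the E2F, CHR or NF-Y motif, or to CHR and NF-Y together (x axis), in 300-base windows of all genes, of genes above the signal floor, of the replication genes and of the mitosis genes. CHR matches are frequent in the mitosis group (75.0%) and E2F matches in the replication group (36.8%).

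Signals of the 48 genes ranged from Pcna, the sliding clamp of DNA polymerase, at 11.19 and 11.40 on the WT and KO arrays, down to Cdc25c, at 5.28 and 6.06. By their brightest probe sets, the mitotic genes were slightly brighter on the KO array and the replication genes were not. The replication side of this contrast shifted with the choice of probe set, as given below. The median difference was 0.27 (1.2-fold) over 26 mitotic genes and -0.004 over 20 replication genes, beside -0.003 over all 14093 genes. Of the mitotic genes, 22 of 26 were above 0, and of the replication genes 10 of 20; of all genes, 49.4% were above 0. Few differences were large. Of the 48 genes, 2 were higher by the size rule (Hmmr, and Cdc25c from a WT signal under the floor), beside 3.83% of all genes, and 3 were lower (Cdc6, Ccne2 and Melk), beside 6.51%, so neither count stands far from the background. None reached 2-fold, which 0.908% of all genes did upwards and 2.31% downwards.

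**Figure D2:**
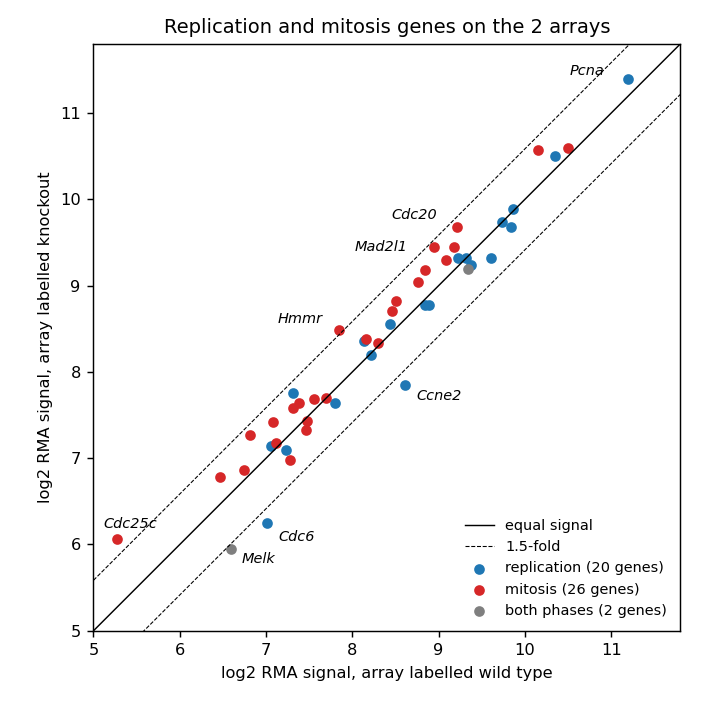
Log2 RMA signal of each gene on the WT array (x axis, labelled wild type) and on the KO array (y axis, labelled knockout), 1 point per gene from its brightest probe set. Most mitosis genes lie a little above the line of equal signal, the replication genes lie on both sides of it, and 5 genes lie beyond the dashed lines of 1.5-fold.

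The scale of these values can be read from genes with several probe sets, the only repeat measurement in the data. Over 5675 genes the pooled SD of the difference between probe sets of a gene was 0.28, and over the 27 genes of these groups with several probe sets above the floor it was 0.19. Both figures cover probe set error and isoforms only, not embryos or dissection. They apply to single genes and give no error for the median of a group. By gene, 11 of 26 mitotic genes exceeded 0.28 (0.2779 before rounding) and 1, Nek2, lay below -0.28. Of the replication genes 1 exceeded 0.28 (Mcm10) and 3 lay below -0.28 (Mcm6, Cdc6 and Ccne2). Some lay at the limit: Bub1b (0.2782) and Mcm6 (-0.288) were counted and Cdk1 (0.2768) was not. Over all genes, 16% exceeded 0.28 and 19.2% lay below -0.28.

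Genes of the MCM helicase were bright and nearly equal on the 2 arrays. The 6 subunits had a median difference of -0.10, from -0.29 to 0.15, and none passed the size rule. Mcm7, with the highest difference of the 6, had signals of 10.35 (WT) and 10.50 (KO), and Mcm6, with the lowest, had 9.61 and 9.32. A second probe set of Mcm6, nearly as bright at 9.42 and 9.49, was at 0.07. Their probe sets disagreed about direction. The 5 probe sets of Mcm3 ran from -0.42 to 0.21 and the 4 of Mcm7 from -0.18 to 0.40; both probe sets of Mcm4 were below 0, and both of Mcm5 above the floor were above 0. Mcm2 had 9.38 and 9.24, with a second probe set at 0.15. No common direction of the helicase can be read at this precision.

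Licensing and firing factors contained both the lowest and the highest replication gene. Cdc6, the ATPase that helps load the helicase, had a signal of 7.02 on the WT array and 6.25 on the KO array, a difference of -0.77 (1.71-fold lower), read by 1 probe set. Mcm10, which helps activate the loaded helicase, went the other way, from 7.31 to 7.76 (0.44), short of the size rule. Cdt1, the partner of Cdc6 in loading, was level at 9.32 on both arrays (0.01), with a second probe set at 0.32. Cdc45 and the GINS subunit Gins2 were at 0.08 and 0.12, each with a second probe set on the same side. Gins1 was at -0.15. Pcna, the sliding clamp and not itself a licensing factor, was counted with this group and was at 0.21. Of these 7 genes 5 were above 0, and the median was 0.08.

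The 3 enzymes of nucleotide supply above the floor were slightly above 0 by their brightest probe sets. The ribonucleotide reductase subunits Rrm1, at 9.22 and 9.32, and Rrm2, at 9.86 and 9.89, differed by 0.09 and 0.03. Further probe sets of Rrm2 were at -0.05 and 0.03, and the second of Rrm1 was at 0.02. Thymidine kinase Tk1, at 8.13 and 8.36, differed by 0.23. All 3 differences are below the probe set SD over all genes (0.28), and that of Tk1 is above the SD over these groups (0.19).

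The 4 genes grouped with S phase entry were below 0 by their brightest probe sets. Cyclin E2 (Ccne2), which activates Cdk2 at the start of S phase, had 8.61 on the WT array and 7.84 on the KO array, a difference of -0.77 (1.7-fold lower) from 1 probe set. Its paralog cyclin E1 (Ccne1) was level, at 8.21 and 8.20, with a second probe set at 0.04. The transcription factor gene E2f1 was at -0.14 and Uhrf1, which carries DNA methylation through replication, at -0.11; each had a second probe set on the other side of 0, at 0.12 and 0.09. Apart from Ccne2 these genes showed no difference beyond the probe set SD.

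Ccna2 and Melk are active from S phase into mitosis and were counted in neither group. Cyclin A2 (Ccna2) had 9.35 and 9.19, a difference of -0.16 with both probe sets below 0. The kinase gene Melk had 6.59 and 5.95, a difference of -0.64 (1.56-fold lower) from 1 probe set. The 3 genes that were lower, Cdc6, Ccne2 and Melk, were each read by a single probe set above the floor, so none has a second reading.

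**Figure D3:**
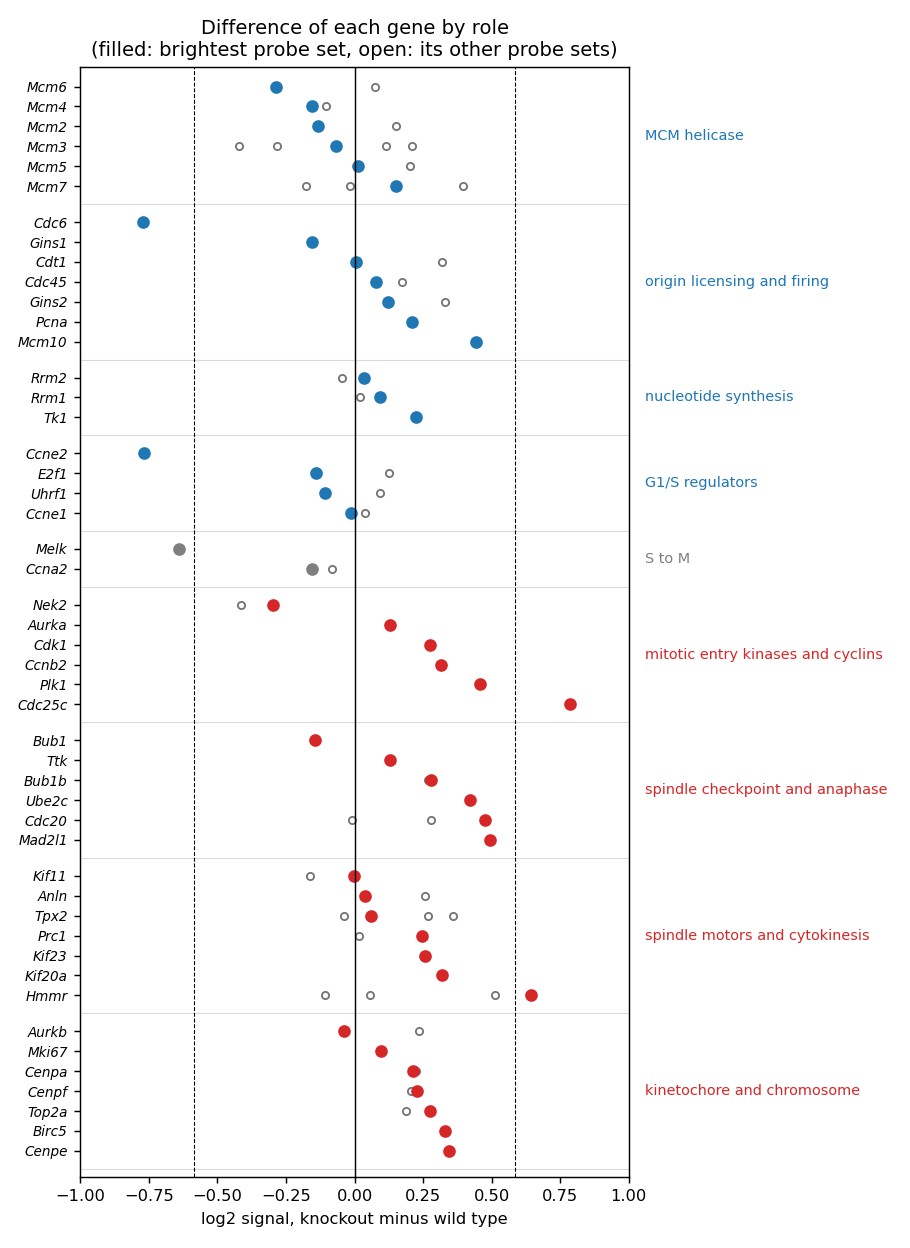
Difference in log2 signal, knockout minus wild type (x axis), for each of 48 genes grouped by role, with the brightest probe set filled and any further probe sets above the floor open; dashed lines mark 1.5-fold. Red points of the mitotic roles lie mostly to the right of 0, and open points of several genes, such as Mcm3, Mcm7 and Hmmr, spread on both sides of it.

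Kinases and cyclins of mitotic entry were above 0 in 5 of 6 genes, with a median of 0.30. Cdc25c, the phosphatase that activates Cdk1, had 5.28 on the WT array and 6.06 on the KO array, a difference of 0.79. It was the only one of the 48 under the floor on an array (WT), so its size is uncertain; against the floor itself the KO signal was 1.46-fold higher, short of the size rule. This probe set is of the _x_at kind, which can share probes with other transcripts, and the gene's other probe set, just under the floor, was at 0.05. Polo-like kinase Plk1 had 6.82 and 7.27 (0.46). Cyclin B2 (Ccnb2), at 8.51 and 8.82, and its partner kinase Cdk1, at 8.76 and 9.04, differed by 0.32 and 0.28. Aurora A kinase (Aurka) was at 0.13. The centrosome kinase gene Nek2 was the exception, at 7.28 and 6.98 (-0.30), and its second probe set above the floor was lower still, at -0.41.

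The spindle checkpoint and anaphase genes had the highest median of the roles by brightest probe sets, 0.35, with 5 of 6 above 0 and none past the size rule. Mad2l1, a checkpoint protein that inhibits Cdc20, had 8.95 on the WT array and 9.44 on the KO array (0.49). Cdc20, the activator of the anaphase-promoting complex, had 9.21 and 9.68 (0.48), with further probe sets at 0.28 and -0.01. Averaged over its probe sets Cdc20 was at 0.25, so the order of the roles depends on the choice of probe set. Ube2c, the ubiquitin-conjugating enzyme of that complex, was bright at 10.15 and 10.57 (0.42). The checkpoint gene Bub1b (BubR1) was at 0.28, and both of its probe sets above the floor were within 0.27 to 0.28. Ttk (Mps1), which starts checkpoint signalling, was at 0.13, and the related kinase gene Bub1, at 7.47 and 7.32, was below 0 (-0.14).

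Motor and cytokinesis genes had a median of 0.25, with 6 of 7 above 0. Hmmr, a spindle-associated hyaluronan receptor, had 7.84 on the WT array and 8.49 on the KO array, a difference of 0.64 (1.56-fold higher). Its 4 probe sets above the floor ran from -0.11 to 0.64, so its place past the size rule rests on the choice of probe set. Kif20a, a kinesin of late mitosis, was at 0.32, Kif23, a kinesin of the central spindle, at 0.26, and Prc1, which bundles central spindle microtubules, at 0.25 with a second probe set at 0.02. Anillin (Anln), the scaffold of the contractile ring, was at 0.04, with a second probe set at 0.26. The spindle factor Tpx2 was at 0.06, and its 4 probe sets ran from -0.04 to 0.36. Kif11, the kinesin that pushes spindle poles apart, was at 7.69 on both arrays by its brightest probe set and at -0.16 by its second.

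Kinetochore and chromosome genes had a median of 0.23, with 6 of 7 above 0, and ran from -0.04 to 0.34. Topoisomerase Top2a, which untangles sister chromatids, had 9.18 and 9.45 (0.27), with a second probe set at 0.19. The centromeric histone gene Cenpa, at 9.09 and 9.30, and the kinetochore gene Cenpf, at 8.15 and 8.38, differed by 0.21 and 0.23, each with a second probe set within 0.03 of the first. The kinetochore motor Cenpe was at 0.34 and survivin (Birc5), of the chromosomal passenger complex, at 0.33. Aurora B (Aurkb), the kinase of that complex, was at -0.04, with its dimmer probe set at 0.24. Mki67, the proliferation marker Ki-67, was bright and nearly level, at 10.50 and 10.60 (0.10).

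Second probe sets of the mitotic genes were also mostly above 0. Of 12 mitotic genes with several probe sets above the floor, 8 had all of them on 1 side of 0, 6 above and 2 below, and their second brightest probe sets had a median of 0.23, with 10 of 12 above 0. Of 14 such replication genes, 6 had all on 1 side, and the second brightest probe sets had a median of 0.08, with 10 of 14 above 0. Over all 5675 genes with several probe sets, averaged per gene, 46.7% were above 0 and the median was -0.02. The share over second brightest probe sets of all genes was not computed. The distance between the groups was smaller in some readings. Mitotic minus replication medians differed by 0.27 in the main reading and by 0.14 when _s_at, _x_at and _a_at probe sets, which can match several transcripts, were left out. That reading kept 20 mitotic genes (median 0.23) and 17 replication genes (median 0.09), with Mcm2, Mcm3, Mcm6 and Cdt1 at 0.15, 0.21, 0.07 and 0.32. In it 17 of 20 mitotic genes and 12 of 17 replication genes were above 0, beside 49.7% of all genes. Over the 27 genes with several probe sets, averaged per gene, it was 0.18, a reading added after the values were seen. Of the brightest probe sets, 6 of 20 replication genes and 3 of 26 mitotic genes were of the _x_at kind.

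Within the mitotic group, the 17 genes with a CHR match had a median difference of 0.26, with 16 above 0, and the 5 without one a median of 0.33, with 3 above 0. The 16 with both a CHR and a CCAAT match had a median of 0.27 and the 6 others 0.18. Among replication genes, the 7 with an E2F match had a median of -0.07 and the 9 without one a median of 0.08. These are descriptions of small groups, and the gaps between them were not tested.

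Other genes of the same processes showed the mitotic shift only in part. Of 35 further mitosis genes, 23 were above 0 (65.7%, beside 49.4% of all genes). Their median was 0.04, well under the 0.27 of the 26 described above. The 2 that passed the size rule were both higher, beside 3.83% of all genes. They were Cks2, a small subunit that binds Cdk1, from 10.31 to 11.04 (0.74), and Fzr1 (Cdh1), from 6.48 to 7.08 (0.60). Fzr1 directs the anaphase-promoting complex after anaphase. Over the 61 mitosis genes together, the median was 0.15, with 45 above 0. Of 36 further replication genes, 21 were above 0 (58.3%), with a median of 0.02. Only Pola2, a subunit of DNA polymerase alpha, passed the size rule, from 8.51 to 7.91 (-0.60), beside 6.51% of all genes lower. Neither this count nor that of the further mitosis genes stands far from the background. Over the 56 replication genes together, the median was 0.02, with 31 above 0. The mitosis lists differ in median by more than the replication lists, so the 0.27 describes the genes listed and not mitosis genes at large.

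Brakes of the cell cycle were mostly below 0. Of 14 genes of inhibitors and pocket proteins, 3 were above 0 (21.4%, beside 49.4% of all genes). Their median was -0.21, and none passed the size rule. Rb1, the retinoblastoma protein that holds E2F factors inactive, had 9.31 and 8.73 (-0.58), just short of it. The p21 gene Cdkn1a, which inhibits cyclin-dependent kinases, had 9.67 and 9.21 (-0.47). Other genes of the list did not share this: Cdkn1b (0.20), Gadd45b (0.09) and Cdkn2c (0.05) were the 3 above 0. Cdkn1c (-0.02), Btg1 (-0.03) and Btg2 (-0.06) were nearly level. Cyclins of the D type, their kinases and the E2f family had a median of 0.04 over 15 genes, with 8 above 0 (53.3%). E2f6, a repressive member, was the only one past the size rule, from 9.51 to 8.53 (-0.98), beside 6.51% of all genes lower. Cdk4, the kinase partner of D cyclins, had 9.15 and 9.62 (0.47). Its probe set is of the _x_at kind and that of Cks2 of the _s_at kind, which can match several transcripts. Genes of these further lists were read from the brightest probe set only, and any other probe sets were not compared.

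**Figure D4:**
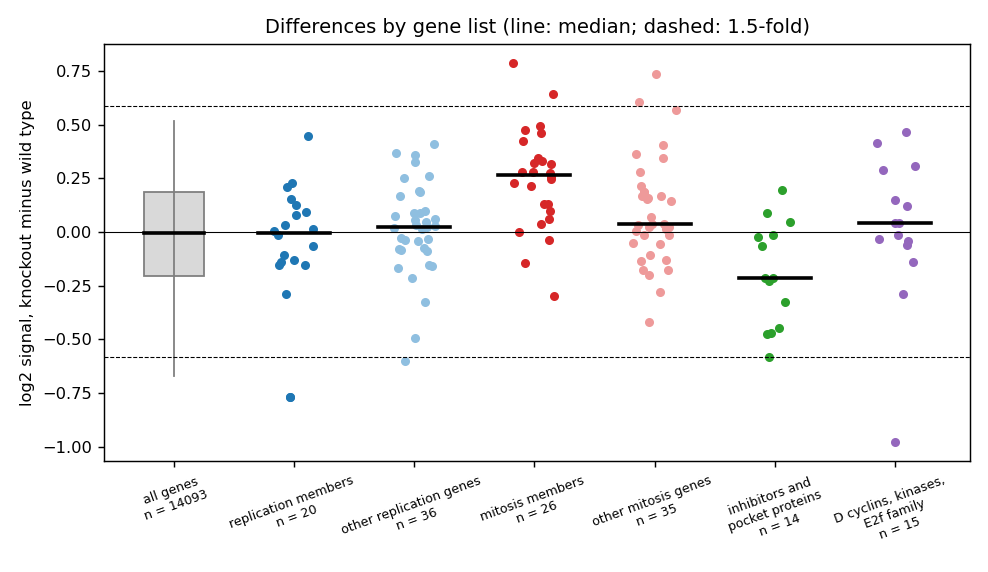
Difference in log2 signal, knockout minus wild type (y axis), for all genes above the floor (box: quartiles, line: 5th to 95th percentile) and for each gene of the named lists (x axis, with n). Thick bars are medians: 0.27 for the mitosis members, 0.04 for the other mitosis genes, and -0.004 and 0.02 for the corresponding replication lists.

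In a bulk sample such as this, fewer cells of a type and less RNA per cell cannot be told apart, and markers of several cell types differed between the arrays along with the mitotic genes. The tissue label was borne out on both arrays by skeletal actin (Acta1, 13.95 and 13.36) and muscle creatine kinase (Ckm, 13.53 and 12.11), although albumin (Alb), made in liver, was also near the top of the scale (14.23 and 14.30). By the size rule, 3.83% of all genes were higher and 6.51% lower. Muscle fibre markers were lower by it in 14 of 15 genes and higher in 0. Their summed linear signal was 101509 on the WT array and 47533 on the KO array. The summed signal of the 14 liver markers read was 107113 and 160094, with 9 higher and none lower. For 13 macrophage and granulocyte markers it was 30074 and 41711, with 3 higher. For 8 mesothelium markers it was 7858 and 12461, with 4 higher. Lung epithelium markers summed to 643 and 3150, with 3 of 5 above the floor higher and Sftpa1, Scgb1a1 and Nkx2-1 under the floor. The other lists were the erythroid markers (10951 and 11168; 4 of 8 above 0, Hba-a1 under the floor), connective tissue fibroblast markers (46840 and 49694; 5 of 9 above 0), endothelium (3459 and 2860; Cldn5 and Aplnr lower, Tie1 under the floor) and myoblast and satellite cell markers (3595 and 2514; Myf5 and Des lower). In 3 of these lists 1 gene carried most of the change in the sum, as seen after the values were known. Without Aplnr the endothelium sum was 2119 and 2167, without Des, which fibres also express, the myoblast sum was 1869 and 1862, and without Sftpc the lung sum was 442 and 636. The part of these cell types in the mitotic difference was not tested.

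Facts of the whole data set also bear on every direction given. Signals of the 45101 probe sets correlated between the arrays (r = 0.985, a description across probe sets). Zbtb18 itself gives no check of the genotype labels: its signals were 8.91 and 9.21, and whether its probe set covers the deleted sequence is not stated in the labels. Xist was at 11.47 and 6.96 and the Y-linked Eif2s3y at 3.59 and 8.58, so sex-linked signal and genotype label cannot be told apart. The 24 poly-A spike-in probe sets had a median difference of -0.75. Scaling to them would move the median of all genes to 0.74, that of the replication genes to 0.74 and that of the mitotic genes to 1.01, and all differences here are therefore relative to the median gene.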

How the data were processed

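The values are log2 signals per probe set that the authors computed with RMA, per the series' design text; the submitters' processing notes name Affymetrix Expression Console 1.1. RMA corrects background, equalises the arrays' quantiles and summarises the probes. Quantile normalisation removes any difference in total mRNA, and RMA compresses dim signals. The text names the 430A 2.0 array, but the number of probe sets is that of the larger design in this family, whose annotation was used. Of 45101 probe sets, 34945 carried 1 gene symbol, 932 several, 9160 none here and 64 were controls. All 49 genes with a probe set had the same symbol in RefSeq.

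Genes were read from the brightest probe set, with a floor at the 40th percentile, and counted at 1.5-fold. No test across samples was possible. The scripts (Python 3.11.15, pandas 2.3.3) were tested on simulated data. Alternatives were the mean over probe sets, no floor or the 60th percentile, centring, loess (statsmodels 0.14.6, fraction 0.3), scaling to spike-ins, leaving out _s_at, _x_at and _a_at probe sets, a 2-fold rule, and Ccna2 and Melk placed in either group. The members, their grouping and all gene lists were chosen with earlier results of these data known. All 50 members are accounted for. Of the other pathway lists, the 3 highest and 3 lowest past the size rule could be named. Cdk4 and the named inhibitors and pocket proteins, Rb1 and Cdkn1a among them, were named after their values were seen. The number of arrays limits the precision.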

Additional observations from a re-analysis of the deposited data

How the results depend on the processing

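With 1 array per genotype no sample could be left out. No paired analysis was possible because each genotype has 1 array and the labels carry no replicate numbers. The mitotic median stayed between 0.19 and 0.27 and the replication median between -0.04 and 0.09 under every alternative except scaling to the poly-A spike-ins, which gave 1.01 and 0.74, counted 43 of 48 genes as higher (70.9% of all genes) and 0 as lower (1.29%), and moved 14 genes from below to above 0, Melk among them (0.11). The gap between the groups, 0.27, was 0.14 without _s_at, _x_at and _a_at probe sets. The count of 2 higher genes became 1 with the mean over probe sets (Cdc25c) or a floor at the 60th percentile (Hmmr), and 0 without the _s_at, _x_at and _a_at kinds. The 2-fold rule counted 0 higher and 0 lower; 0.908% and 2.31% of all genes passed it. Among the 27 genes with several probe sets, a reading added after the values were seen, 0 were higher, 0 lower and 19 above 0. Over the 5675 genes of that reading, 1.32% were higher, 4.65% lower and 46.7% above 0, so the counts of 0 stand near the background. This reading drops the 4 single-probe-set genes past the size rule and averages Hmmr to 0.28. Apart from these, the count of lower genes stayed at 2 or 3. Dim signals limit Cdc25c and Melk most.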
